A study of Arabidopsis thaliana with 71 samples.

Results

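The response of Arabidopsis seedlings to 120 min of GR-STM activation was measured as the change in a GR-STM line treated with dexamethasone, less the change that the same treatment gave in wild-type (WT) seedlings. It rests on 18 of the 71 RNA-seq libraries of the series: 3 GR-STM libraries at 120 min, 3 GR-STM libraries at 0 min, 6 WT libraries at 120 min and 6 WT libraries at 0 min. All nuclear genes whose mean reached 1 FPKM (fragments scaled to transcript length and to the mapped fragments of a library) in at least 1 of the 20 groups of the series were tested, which were 19251 of 22132 nuclear genes. The gene just inside that limit was AT3G18020, with a highest group mean of 1.0026 FPKM, and the gene just outside was AT1G23910, at 0.99998 FPKM.

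GR-STM seedlings carried SHOOT MERISTEMLESS (STM) fused to the hormone-binding part of a glucocorticoid receptor (GR), and the WT seedlings carried no fusion; both were of the Columbia ecotype. They were grown for 7 days in shaken flasks of liquid MS medium, received dexamethasone to 50 micromolar, and were frozen whole 0, 30, 60 or 120 min later. Dexamethasone was thus given to GR-STM and to WT flasks alike, and no library of seedlings without it was used here. Below, GR-STM after dexamethasone means 30, 60 or 120 min, and treated libraries are those at 120 min. The 3 other lines of the series, used below for comparison, carry GR fusions of AS2, REV or KAN1. The sources used here name neither the promoter that drives the fusion nor how many independent lines were used. The design text calls all replicates biological. The p-values rest on a spread between libraries that was pooled over all 71 libraries of the series, not over these 18 alone. In whole seedlings, fewer cells of a type and less RNA per cell cannot be told apart.

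STM is a class I KNOX homeodomain protein of the shoot apical meristem, where it keeps cells from differentiating and holds leaf founder cells and meristem cells apart. In Arabidopsis it is known for raising cytokinin, for keeping gibberellin low, and for its interplay with the CUC genes, which mark the boundaries between organs, and with AS1, which is switched on in leaf founder cells. KNOX proteins bind DNA together with BEL1-like partners and favour sites with a TGAC core. A GR fusion is held in the cytoplasm until dexamethasone, a steroid, releases it to the nucleus, so that the transcript changes of the first hours can be followed.

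The libraries were alike in scale, with median levels of 4.25 to 4.93 FPKM and 323 to 1100 genes listed at 0 each over the 71 libraries. WT 0 min replicate 2 stood furthest from its group, at a root-mean-square log2 distance of 0.801, against 0.354 to 0.576 for the other 17 libraries. GR-STM 0 min replicates 2 and 3 had high levels of touch and early stress genes: the 17 listed genes summed to 682 and 699 FPKM in them and to 211 FPKM in replicate 1. The same sum was 292 to 398 FPKM in GR-STM at 120 min, 250 to 377 FPKM in WT at 120 min and 191 to 363 FPKM in WT at 0 min. The 10 green tissue markers summed to 34792 to 76512 FPKM in GR-STM at 120 min and 37948 to 107719 FPKM at 0 min and to 36827 to 78218 FPKM in WT at 120 min and 32900 to 114291 FPKM at 0 min. One of them, RBCS1A, a Rubisco subunit, was listed at 0 in every GR-STM library at both times, and 12 genes with a median over 20 FPKM were listed at 0 in at least 1 of the 18 libraries, so that a 0 may stand for a failed estimate. The 10 root markers summed to 150 to 205 FPKM in GR-STM and 92.6 to 139 FPKM in WT at 120 min, and to 180 to 231 FPKM in GR-STM and 151 to 276 FPKM in WT at 0 min. None of the 10 root or 10 green markers passed the test, where 0.821% of all genes did. The changes of RBCS1A and LHCB1.3 had SEs of 3.68 and 4.86 log2, so that these genes could hardly pass. RBCS1A averaged 14458 FPKM in WT at 120 min and 26309 FPKM at 0 min, so that the green sums do not compare GR-STM with WT. Both kinds of tissue were thus present, and the part of tissue make-up in the changes was not tested.

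STM transcript itself was high in the GR-STM line at every time and did not pass the test for a change. The line held 159.8, 225 and 97.1 FPKM at 120 min, against 109, 342 and 140.2 FPKM at 0 min, while WT held 2.29 to 4.02 FPKM at 120 min and 2.25 to 3.78 FPKM at 0 min. Every GR-STM library lay above every WT library. These levels sum the fusion and the native gene, whose reads the table does not separate. The log2 change beyond WT was -0.14 (SE 0.38, limma adjusted p = 1).

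At 120 min, 158 genes had changed beyond WT at an adjusted p under 0.05, which was 0.821% of the genes tested. Of these, 113 genes (0.587%) were higher and 45 (0.234%) were lower. The genes that rose included organ boundary genes (CUC1, LSH3, LSH4, BOP2), AS1, the PLETHORA-type genes AIL6 and AIL7, the NAC genes NTM1 and NAC067, and genes of cytokinin and gibberellin metabolism (CKX7, LOG8, GA3OX1). Those that fell included the sugar exporter SWEET12, the acyltransferase GPAT3, the auxin synthesis gene TAA1 and several cell wall genes. Changes of the higher genes ran between 0.62 and 3.87 on the log2(FPKM + 0.5) scale with a median of 1.42, and those of the lower genes between -2.39 and -0.76 with a median of -1.41. The median over all genes tested was 0.0083. The test was limma on log2(FPKM + 0.5), 2-sided, with 49 residual degrees of freedom, and 1097 genes had an unadjusted p under 0.05.

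Calls rest on these same libraries, so how far their levels stand apart follows in large part from the calling and is given as a description. In all 113 higher genes the 3 GR-STM libraries at 120 min lay above the 3 at 0 min, as they did in 10.9% of all genes tested, and in 109 they lay above all 6 WT libraries at 120 min, as in 6.25% of all. In 37 of the 45 lower genes the 120 min libraries lay below those at 0 min (11% of all), and in 34 below all WT libraries at 120 min (6.03% of all). Of the higher genes, 0 had differed from WT at 0 min by the same test. Of the lower genes, 10 had been higher in GR-STM than in WT at 0 min, where 65 of all genes (0.338%) were. The comparisons share the 0 min libraries. Without GR-STM 0 min replicates 2 and 3, a setting chosen after the data were seen that leaves 1 library in that group and takes its spread from the other groups, 50 genes were higher and 10 lower, and 57 of these 60 were among the 158. With code series Ot79 alone, the only one that holds all 4 groups, 71 were higher and 25 lower. The lower genes moved most with single GR-STM libraries: without 0 min replicate 1 they were 102 (110 higher), without 0 min replicate 2 they were 29 (79 higher), and without 0 min replicate 3 they were 24 (99 higher). Without GR-STM 120 min replicates 1, 2 or 3, one at a time, 33, 26 and 29 were lower and 81, 97 and 98 higher.

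**Figure D1:**
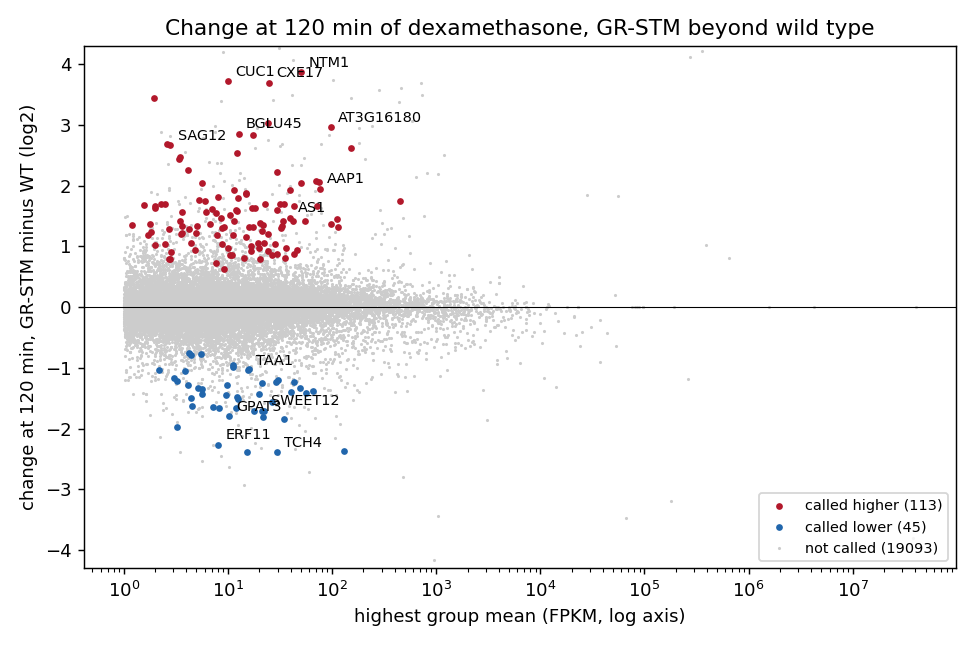
Change at 120 min in GR-STM beyond WT (y axis, log2 scale) of each of the 19251 genes against its highest group mean (x axis, FPKM, log scale). The 113 higher genes are red, the 45 lower genes blue and all others grey; 20 genes, none of them called, lie beyond the y axis. The called genes reach 3.87 and -2.39.

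The NAC gene NTM1 (AT4G01540, chr4:670483-672789) had the largest rise among the genes called. NTM1 encodes a membrane-tethered NAC transcription factor that is known for restraining cell division. Its level was 49.04, 51.1 and 51.8 FPKM in GR-STM at 120 min, against 2.36, 2.93 and 3.6 FPKM at 0 min. WT libraries had 1.41, 1.95 and 2.56 FPKM as lowest, median and highest at 120 min and 1.55, 1.67 and 2.74 FPKM at 0 min. The GR-STM libraries at 120 min were thus all far above every other library of the comparison. The change beyond WT was 3.87 (SE 0.36, limma adjusted p = 2.61e-11). A second NAC gene of the same cluster, NAC067 (AT4G01520, chr4:656407-659178), was at 3.37, 3.42 and 3.53 FPKM in GR-STM at 120 min, against 0.164, 0.243 and 0.329 FPKM at 0 min and 0 to 0.219 FPKM in WT at 120 min. Its change was 2.48 (SE 0.23, limma adjusted p = 3.54e-11). The small gene AT4G01535 lies 652 bases from NTM1 and rose as well, by 2.69 (SE 0.39, limma adjusted p = 7.50e-06); the other neighbour, NAC069 (AT4G01550), with a change of 0.80, did not pass (adjusted p = 0.10041). NAC067 and AT4G01535 passed the filter on low values only through GR-STM after dexamethasone, so that each had to differ in order to be tested, and their p-values are no support for the rise. AT4G01535 was chosen after its values were seen, for its position. How reads of adjoining genes were assigned is not given in the sources used here.

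CUC1 (AT3G15170, chr3:5109782-5111608), a NAC factor that sets the boundary between cotyledons and between organs, was close to absent at 0 min. GR-STM libraries held 12.8, 7.52 and 9.58 FPKM at 120 min, against 0.452, 0.223 and 0.371 FPKM at 0 min. In WT the lowest, median and highest were 0, 0.569 and 0.795 FPKM at 120 min and 0.146, 0.487 and 0.738 FPKM at 0 min. All 3 GR-STM libraries at 120 min were higher than every WT library and every GR-STM library at 0 min. The change was 3.72 (SE 0.33, limma adjusted p = 1.75e-11). CUC1 too passed the filter only through GR-STM after dexamethasone, and so had to differ in order to be tested. In all, 73 genes passed in that way, 12 of the 158 called among them; of the genes named here these are CUC1, NAC067, AT4G01535, AIL7 and SAG12.

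The 250 bases before the transcription start of a few genes the results turn on are printed here from RefSeq's TAIR10.1 assembly, 5′ to 3′ on the gene's own strand. Capitals mark TGACAG, a letter string that holds the TGAC core, where it occurs on the other strand as CTGTCA. CUC1 and AS1 are shown as boundary and leaf founder genes that rose, AAP1 as a transporter that rose and SWEET12 as a transporter that fell.
CUC1 (chr3:5109532-5109781, plus strand): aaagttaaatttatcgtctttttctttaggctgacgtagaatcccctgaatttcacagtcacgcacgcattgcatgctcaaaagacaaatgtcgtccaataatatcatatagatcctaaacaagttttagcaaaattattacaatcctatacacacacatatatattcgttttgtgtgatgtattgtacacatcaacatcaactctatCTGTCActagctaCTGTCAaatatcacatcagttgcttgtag
AS1 (chr2:15783481-15783730, minus strand): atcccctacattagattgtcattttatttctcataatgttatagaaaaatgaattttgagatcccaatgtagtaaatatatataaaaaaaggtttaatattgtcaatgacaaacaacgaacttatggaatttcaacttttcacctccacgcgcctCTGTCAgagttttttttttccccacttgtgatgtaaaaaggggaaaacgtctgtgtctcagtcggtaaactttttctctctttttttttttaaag
AAP1 (chr1:21676138-21676387, plus strand): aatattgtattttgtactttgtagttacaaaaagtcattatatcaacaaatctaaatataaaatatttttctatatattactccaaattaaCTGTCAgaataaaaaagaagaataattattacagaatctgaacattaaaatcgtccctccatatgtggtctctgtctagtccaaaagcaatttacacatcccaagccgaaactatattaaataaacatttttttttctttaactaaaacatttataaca
SWEET12 (chr5:7973996-7974245, minus strand): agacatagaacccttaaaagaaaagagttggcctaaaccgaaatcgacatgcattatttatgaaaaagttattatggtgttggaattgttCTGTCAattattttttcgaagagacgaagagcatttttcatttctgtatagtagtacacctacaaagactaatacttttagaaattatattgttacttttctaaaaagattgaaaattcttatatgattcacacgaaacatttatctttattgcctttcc
CUC1 holds the string at 2 places, 42 and 29 bases before the start (positions -42 and -29), AS1 at -95, AAP1 at -159 and SWEET12 at -160. These 4 promoters were chosen because they hold it; the NTM1 and CXE17 windows do not. TGACAG was in the window of 7 of the 113 higher genes (6.19%) and 3 of the 45 lower genes (6.67%), against 1122 of 19168 promoters of genes tested (5.85%), on either strand. The TGAC core, which lies within TGACAG, was in 77.9% of higher, 75.6% of lower and 75.8% of all promoters. The longer strings TGACAGGT and TGACAGCT, which both contain TGACAG, were in 0.292% and 0.459% of all promoters and in 0 of those of the called genes. A match describes these letters only.

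Of the 13 organ boundary genes listed, 12 were in the table, 7 passed the filter, and 4 of these rose with 0 falling, where 0.587% of all genes rose; the list's median change was 1.04, against 0.0083 over all genes. One of the 4 is CUC1, which the filter admitted only through GR-STM after dexamethasone. LSH3 (AT2G31160, chr2:13277710-13279498), whose DUF640 protein is made in boundary cells, stood at 38.2, 26.6 and 23.5 FPKM in GR-STM at 120 min, against 7.86, 6.68 and 7.77 FPKM at 0 min. WT had 5.75, 6.79 and 8.22 FPKM as lowest, median and highest at 120 min and 3.77, 5.48 and 6.99 FPKM at 0 min. The treated GR-STM libraries did not overlap any other group, and the change was 1.61 (SE 0.29, limma adjusted p = 0.000563). Its relative LSH4 (AT3G23290, chr3:8326628-8328557) stood at 62.5, 53.3 and 50.5 FPKM in GR-STM at 120 min, against 16.9, 17.2 and 17.4 FPKM at 0 min, and at 14.1 to 24.6 FPKM in WT at 120 min and 13.1 to 33.8 FPKM at 0 min. Here too the treated libraries were above all others, with a change of 1.41 (SE 0.33, limma adjusted p = 0.0127). BOP2 (AT2G41370, chr2:17237727-17240609), an ankyrin-repeat co-regulator at the leaf base, stood at 7.49, 6.83 and 6.06 FPKM in GR-STM at 120 min, against 2.67, 2.13 and 2.97 FPKM at 0 min and 1.45 to 2.76 FPKM in WT at 120 min. The change was 1.04 (SE 0.23, limma adjusted p = 0.00832). BOP1, LOB and RAX1 had changes of 0.65, -0.33 and -0.27 and did not pass. Without GR-STM 0 min replicates 2 and 3 the adjusted p was 0.0514 for LSH3, 0.212 for LSH4 and 0.225 for BOP2, with changes of 1.53, 1.44 and 0.99. LSH4 was also lost without GR-STM 120 min replicate 1 (adjusted p = 0.064), and BOP2 without GR-STM 0 min replicate 2 (adjusted p = 0.0632).

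Among 7 tested genes of meristem and leaf initiation, 3 rose and 0 fell, with a list median of 0.62, where 0.587% of all genes rose. AS1 (AT2G37630, chr2:15781232-15783480), a MYB-type repressor of other KNOX genes in leaf founder cells, stood at 33.5, 35.6 and 26.4 FPKM in GR-STM at 120 min, against 13.1, 10.5 and 10.02 FPKM at 0 min. WT libraries had 11.7, 14.1 and 17.2 FPKM as lowest, median and highest at 120 min and 11.8, 12.8 and 17.4 FPKM at 0 min. All treated GR-STM libraries were above all others, and the change was 1.47 (SE 0.27, limma adjusted p = 0.000581). AIL7 (AT5G65510, chr5:26185593-26189571), an AP2-type factor of young organs and the meristem, stood at 4.4, 2.97 and 3.46 FPKM in GR-STM at 120 min, against 0.697, 0.947 and 0.558 FPKM at 0 min and 0.398 to 0.863 FPKM in WT at 120 min. Its change was 1.57 (SE 0.37, limma adjusted p = 0.0143), but AIL7 entered the test only through GR-STM after dexamethasone. AIL6 (AT5G10510, chr5:3315401-3320323), also known as PLETHORA3, stood at 2.51, 2.4 and 2.17 FPKM in GR-STM at 120 min, against 1.28, 0.943 and 0.869 FPKM at 0 min and 0.695 to 1.32 FPKM in WT at 120 min. The AIL6 change was 1.04 (SE 0.26, limma adjusted p = 0.0346), and the call was lost without GR-STM 120 min replicates 1, 2 or 3, GR-STM 0 min replicates 2 or 3, WT 120 min replicates 2 or 3, or WT 0 min replicates 1, 3 or 6 (adjusted p between 0.0522 and 0.141). CLV1, ANT, AS2 and HAN had changes of 0.62, 0.32, -0.09 and -0.14 and did not pass. Without GR-STM 0 min replicates 2 and 3 AS1 had a change of 1.25 (adjusted p = 0.145), AIL7 one of 1.6 (adjusted p = 0.212) and AIL6 one of 0.81 (adjusted p = 1), so that the size was about kept in AS1 and AIL7 while the call was lost. AIL7 was also lost without GR-STM 120 min replicate 1, or GR-STM 0 min replicate 3 (adjusted p between 0.0694 and 0.0797).

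**Figure D2:**
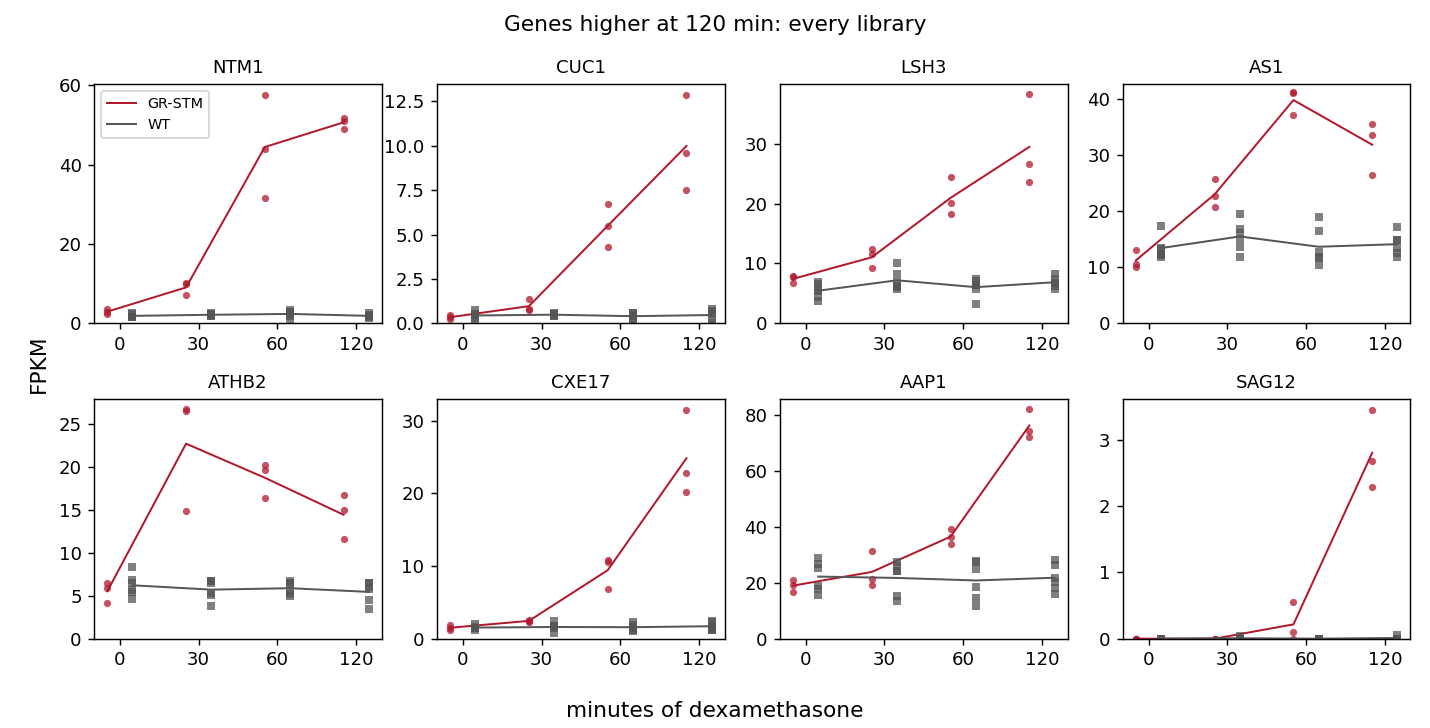
Levels (y axes, FPKM) of 8 genes that rose, NTM1, CUC1, LSH3, AS1, ATHB2, CXE17, AAP1 and SAG12, in every GR-STM library (red circles) and WT library (grey squares) at 0, 30, 60 and 120 min (x axes, evenly spaced); lines join the group means. At 120 min the 3 GR-STM libraries lie above all 6 WT libraries in each panel, and ATHB2 has its highest GR-STM mean at 30 min.

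None of the 9 KNOX genes passed the test in either direction, where 0.821% of all genes did, and their median change was 0.04. KNATM, a KNOX protein without a homeodomain, had a change of 1.14 (limma adjusted p = 0.73). KNAT1, known as BREVIPEDICELLUS and close in function to STM, averaged 8.69 FPKM in GR-STM at 120 min and 4.51 FPKM at 0 min, and 5.33 FPKM and 4.31 FPKM in WT at the same times, a change of 0.75 (adjusted p = 0.48). KNAT2 and KNAT4 had changes of 0.72 and 0.75, and KNAT6, a boundary KNOX gene, one of -0.1. Of the 11 BEL1-like genes tested, whose proteins pair with KNOX proteins, 0 rose and 1 fell, where 0.234% of all genes fell: BLH6, a regulator of secondary walls. BLH6 stood at 3.51, 4.5 and 4.94 FPKM in GR-STM at 120 min, against 8.31, 9.62 and 9.25 FPKM at 0 min and 7.22 to 10.8 FPKM in WT at 120 min, a change of -0.98 (SE 0.26, limma adjusted p = 0.048). That call was lost without GR-STM 120 min replicates 1 or 2, GR-STM 0 min replicates 2 or 3, WT 120 min replicates 1, 2, 3 or 5, or WT 0 min replicates 1, 2, 3, 4 or 6 (adjusted p between 0.0515 and 0.229), and in all held in 5 of 18 such fits; without GR-STM 0 min replicates 2 and 3 the change was -0.87 (adjusted p = 0.86).

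Among the 8 HD-ZIP II genes tested, a family of repressors known from shade responses, 1 rose, ATHB2 (AT4G16780, chr4:9449114-9450905), and 0 fell, where 0.587% of all genes rose. ATHB2 stood in GR-STM at 6.48, 4.12 and 5.94 FPKM at 0 min, 26.8, 14.9 and 26.5 FPKM at 30 min, 19.6, 20.3 and 16.4 FPKM at 60 min and 16.7, 15 and 11.6 FPKM at 120 min. WT at 120 min had 3.42, 5.91 and 6.5 FPKM as lowest, median and highest. Its GR-STM mean was highest at 30 min, and at 120 min all GR-STM libraries were still above all WT libraries. The change at 120 min was 1.69 (SE 0.27, limma adjusted p = 5.92e-05); at 30 min it was 2.16 (SE 0.26, limma adjusted p = 7.38e-07). The C2H2 zinc-finger gene ZFP1 had also risen by 30 min but had its highest GR-STM mean at 60 min, with 1.02, 0.594 and 0.742 FPKM at 0 min, 2.53, 3.61 and 3.89 FPKM at 30 min, 6.11, 6.68 and 4.01 FPKM at 60 min and 5.36, 3.92 and 3.24 FPKM at 120 min in GR-STM. WT held 0.376 to 1.45 FPKM of ZFP1 at 120 min, and the change was 2.05 (SE 0.33, limma adjusted p = 7.81e-05). LOL1, a zinc-finger gene tied to cell death in Arabidopsis, stood at 52.9, 51.98 and 44.7 FPKM in GR-STM at 120 min, against 10.99, 6.93 and 9.06 FPKM at 0 min and 16.3 to 39.4 FPKM in WT at 120 min, a change of 2.04 (SE 0.32, limma adjusted p = 4.36e-05).

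Of 16 tested genes that make or break down cytokinin, 2 rose and 0 fell, where 0.587% of all genes rose, while the list's median was -0.07. CKX7 (AT5G21482, chr5:7226606-7230304), the cytokinin oxidase of the cytosol, which destroys the hormone, stood at 39.5, 36.1 and 43.5 FPKM in GR-STM at 120 min, against 11.9, 12.3 and 9.88 FPKM at 0 min. WT had 11.2, 12.4 and 15.5 FPKM as lowest, median and highest at 120 min and 10.99, 15.9 and 18.8 FPKM at 0 min. The treated GR-STM libraries stood clear of both, and the change was 1.93 (SE 0.33, limma adjusted p = 0.000167). LOG8 (AT5G11950, chr5:3854388-3857243), of the enzyme family that releases active cytokinin, stood at 49.4, 43.96 and 43.7 FPKM in GR-STM at 120 min, against 18.6, 20.4 and 21.1 FPKM at 0 min and 19.9 to 28.7 FPKM in WT at 120 min. Its change was 0.93 (SE 0.19, limma adjusted p = 0.00405). IPT genes, which start cytokinin synthesis, did not pass beyond WT: 0.62 for IPT3 and 0.44 for IPT5. Of the 9 type-A response regulators, quick reporters of cytokinin signalling, 0 passed, with a median of 0.08, where 0.821% of all genes passed.

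Of 9 tested gibberellin genes, 1 rose, GA3OX1 (AT1G15550, chr1:5344388-5346342), which makes the active hormone, where 0.587% of all genes rose, and the list's median was -0.27. GA3OX1 stood at 23.1, 23.2 and 19.9 FPKM in GR-STM at 120 min, against 13.2, 9.67 and 8.38 FPKM at 0 min and 10.4 to 13.3 FPKM in WT at 120 min. Its change was 1.06 (SE 0.23, limma adjusted p = 0.00753); without GR-STM 0 min replicate 3 the adjusted p was 0.0661, and without replicates 2 and 3 it was 1, with a change of 0.71. Of 16 tested genes of auxin synthesis and transport, 1 fell, TAA1 (AT1G70560, chr1:26604855-26607652), which carries out the first step from tryptophan to auxin; 0.234% of all genes fell. TAA1 stood at 2.53, 2.29 and 2.27 FPKM in GR-STM at 120 min, against 7.56, 5.11 and 5.25 FPKM at 0 min. WT had 6.11, 6.88 and 10.01 FPKM as lowest, median and highest at 120 min and 6.53, 9.7 and 15.6 FPKM at 0 min. All treated GR-STM libraries were below all others, and the change was -1.04 (SE 0.21, limma adjusted p = 0.00235); with no code series term the adjusted p was 0.25. None of 16 auxin-induced genes and none of 7 brassinosteroid genes passed, where 0.821% of all genes did.

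**Figure D3:**
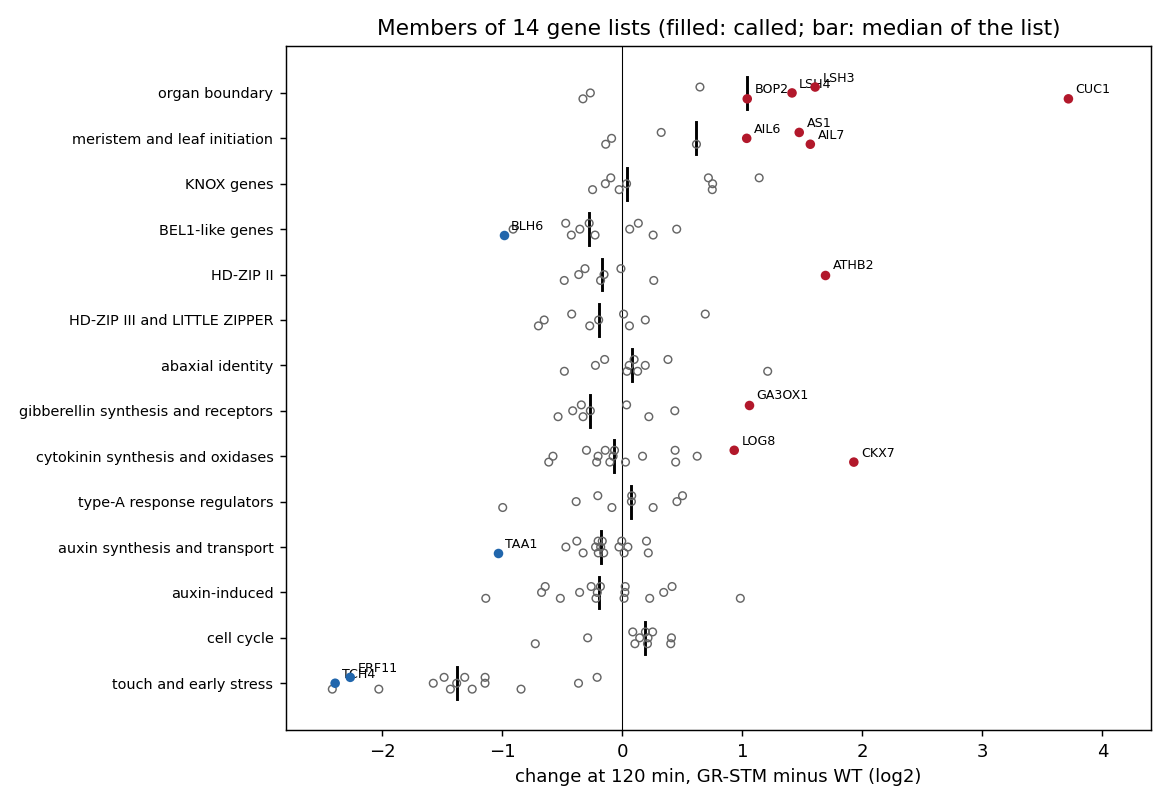
Change at 120 min in GR-STM beyond WT (x axis, log2 scale) of each tested member of 14 gene lists (one line each); filled points passed the test and the bar is the list's median. The organ boundary list has 4 of 7 members called and a median of 1.04, and the touch and early stress list a median of -1.38 with 2 of 15 called.

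AAP1, AT3G16180 and BCAT-2 handle amino acids or nitrate. AAP1 (AT1G58360, chr1:21676388-21680519), a permease that carries neutral amino acids into cells, stood at 74.1, 72.03 and 82.1 FPKM in GR-STM at 120 min, against 21.04, 19.05 and 16.7 FPKM at 0 min. WT had 15.96, 20.96 and 28.2 FPKM as lowest, median and highest at 120 min and 15.7, 22.01 and 28.9 FPKM at 0 min. All treated GR-STM libraries were above all others, and the change was 1.95 (SE 0.28, limma adjusted p = 6.36e-06). AT3G16180, a nitrate transporter family gene, stood at 84.2, 96.2 and 113 FPKM in GR-STM at 120 min, against 18.5, 12.6 and 17.6 FPKM at 0 min and 10.7 to 17.2 FPKM in WT at 120 min, a change of 2.96 (SE 0.31, limma adjusted p = 1.83e-09). BCAT-2, which breaks down branched-chain amino acids, stood at 12.4, 11.5 and 13.1 FPKM in GR-STM at 120 min, against 1.23, 1.1 and 0.959 FPKM at 0 min and 1.37 to 2.04 FPKM in WT at 120 min. Its change was 2.54 (SE 0.35, limma adjusted p = 1.74e-06).

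Further large rises were seen in CXE17 (AT5G16080, chr5:5252251-5253790), a carboxylesterase, which stood at 31.5, 20.2 and 22.8 FPKM in GR-STM at 120 min, against 1.88, 1.19 and 1.44 FPKM at 0 min and 1.22 to 2.4 FPKM in WT at 120 min. The groups did not overlap, and the change was 3.69 (SE 0.38, limma adjusted p = 7.71e-10). BGLU45, a beta-glucosidase that acts on monolignol glucosides, was the 1 of 16 lignin genes to pass (0.821% of all genes did): it stood at 14.1, 12.3 and 11.8 FPKM in GR-STM at 120 min, against 0.644, 1.84 and 1.93 FPKM at 0 min and 0.523 to 2.19 FPKM in WT at 120 min, a change of 2.86 (SE 0.58, limma adjusted p = 0.0026). AT2G39320, a cysteine proteinase family gene, AT3G24450, of the heavy metal transport family, and AT3G62550, of the adenine nucleotide hydrolase family, had changes of 3.03, 2.84 and 2.62. AT5G61290 (a flavin monooxygenase), AT1G29465 and AT3G22550 had changes of 2.22, 2.07 and 2.05. Without GR-STM 0 min replicates 2 and 3 AT3G62550 and AT5G61290 had changes of 2.64 and 2.09, about as large as with all libraries, at adjusted p of 0.184 and 0.172. With no code series term the call of AT1G29465 was lost, at an adjusted p of 0.0797. AT3G62550 was also lost without GR-STM 120 min replicate 2, or GR-STM 0 min replicate 2 (adjusted p between 0.0657 and 0.0939).

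SAG12 (AT5G45890, chr5:18613239-18614963), a cysteine protease known as a marker of senescing leaves, came late. In GR-STM it was listed at 0 in every library at 0 and 30 min, at 0.552, 0.0948 and 0 FPKM at 60 min and at 3.44, 2.29 and 2.68 FPKM at 120 min. WT libraries were listed at 0 at 0 min, and at 120 min 5 of 6 were at 0 and the other at 0.0626 FPKM. A fold against groups at 0 depends on the pseudocount: the fitted change was 2.66 (SE 0.21, limma adjusted p = 1.63e-13) with a pseudocount of 0.5, 4.65 with 0.1 and 1.89 with 1. SAG12 too passed the filter only through GR-STM after dexamethasone.

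Among the genes that fell, SWEET12 (AT5G23660, chr5:7971647-7973995), which exports sucrose from leaf cells toward the phloem, had a lower GR-STM mean at each later time. It stood at 12.5, 10.8 and 14.05 FPKM at 0 min, 10.8, 8.17 and 9.11 FPKM at 30 min, 8.13, 6.62 and 9.09 FPKM at 60 min and 5.37, 3.16 and 3.85 FPKM at 120 min. WT had 7.03, 15.3 and 21.1 FPKM as lowest, median and highest at 120 min and 9.85, 11.2 and 18.4 FPKM at 0 min. GR-STM libraries at 120 min were below every other library of the comparison, and the change was -1.7 (SE 0.33, limma adjusted p = 0.00115). AT2G41250, of the haloacid dehalogenase family, stood at 7.99, 6.55 and 6.61 FPKM in GR-STM at 120 min, against 30.6, 29.05 and 30.3 FPKM at 0 min and 18.4 to 40.6 FPKM in WT at 120 min, a change of -1.85 (SE 0.33, limma adjusted p = 0.000453). MYB59, a MYB factor known from root growth, stood at 12.1, 11.9 and 10.6 FPKM in GR-STM at 120 min, against 29.1, 28.5 and 28.3 FPKM at 0 min and 26.8 to 47.5 FPKM in WT at 120 min. Its change was -1.4 (SE 0.26, limma adjusted p = 0.000561). These 3 genes kept their calls under every setting tried and without any single library.

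GPAT3 (AT4G01950, chr4:844342-846814), a glycerol-3-phosphate acyltransferase of lipid synthesis, stood at 2.48, 2.17 and 1.93 FPKM in GR-STM at 120 min, against 6.95, 10.3 and 13.7 FPKM at 0 min. WT had 4.66, 5.28 and 6.52 FPKM as lowest, median and highest at 120 min and 4.8, 5.65 and 6.43 FPKM at 0 min. The treated GR-STM libraries were below all others, and the change was -1.8 (SE 0.29, limma adjusted p = 7.37e-05). At 0 min GPAT3 was higher in GR-STM than in WT by 0.84 (SE 0.21, limma adjusted p = 0.0439), and without GR-STM 0 min replicates 2 and 3 the change was -1.31 with an adjusted p of 0.12.

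Wall genes that fell included 2 pectin methylesterase inhibitor family genes, whose products restrain pectin-modifying enzymes. AT1G23205 stood at 17.7, 12.04 and 15.8 FPKM in GR-STM at 120 min, against 41.5, 41.4 and 39.97 FPKM at 0 min and 25.3 to 77.6 FPKM in WT at 120 min. Its treated libraries were below all others, and the change was -1.32 (SE 0.24, limma adjusted p = 0.000508); with no code series term the adjusted p was 0.0918. AT5G62360 stood at 2.58, 0.838 and 1.87 FPKM in GR-STM at 120 min, against 7.47, 3.06 and 10.08 FPKM at 0 min and 14.3 to 24.7 FPKM in WT at 120 min, a change of -2.38 (SE 0.54, limma adjusted p = 0.0104). EXO, an apoplast protein of brassinosteroid-dependent growth, stood at 21.2, 19.9 and 25.2 FPKM in GR-STM at 120 min, against 39.1, 71.4 and 59.3 FPKM at 0 min and 36.4 to 57.95 FPKM in WT at 120 min. Its change was -1.41 (SE 0.22, limma adjusted p = 4.17e-05). Without GR-STM 0 min replicates 2 and 3 AT5G62360 had a change of -2.63 (adjusted p = 0.0617), no smaller than with all libraries, and EXO one of -0.93 (adjusted p = 0.161). AT5G62360 was also lost without GR-STM 120 min replicate 2, or GR-STM 0 min replicate 3 (adjusted p between 0.0857 and 0.0887).

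Several of the lowest changes belonged to genes that were high in GR-STM 0 min replicates 2 and 3 and not in replicate 1. TCH4 (AT5G57560, chr5:23307006-23308680), a touch-induced xyloglucan enzyme, stood at 4.89, 5.16 and 5.49 FPKM in GR-STM at 120 min, against 5.83, 36.4 and 39.4 FPKM at 0 min. WT had 9.77, 13.7 and 20.9 FPKM as lowest, median and highest at 120 min and 5.58, 8.05 and 12.1 FPKM at 0 min. Replicate 1 at 0 min was thus close to the treated libraries and within the WT range at 0 min, and the change was -2.39 (SE 0.48, limma adjusted p = 0.00227). ERF11, an ethylene-response repressor, stood at 2.4, 1.93 and 2.27 FPKM in GR-STM at 120 min, against 2.11, 10.4 and 11.8 FPKM at 0 min. WT held 1.49 to 3.26 FPKM of ERF11 at 120 min, with a mean of 2.32 FPKM, against a mean of 1.44 FPKM at 0 min. The change of ERF11 beyond WT, -2.27 (SE 0.56, limma adjusted p = 0.0275), thus also holds a rise of the WT mean. RTFL12, of a family of small peptides that limit organ length, stood at 4.43, 4.58 and 6.31 FPKM in GR-STM at 120 min, against 3.99, 14.2 and 26.8 FPKM at 0 min and 6.8 to 15.6 FPKM in WT at 120 min. Its change was -2.38 (SE 0.57, limma adjusted p = 0.0198). CAF1a, a deadenylase of stress responses, had 6.35, 30.1 and 28.8 FPKM in GR-STM at 0 min and a change of -1.82. Among fits that each left out 1 library, the call of ERF11 was lost without GR-STM 120 min replicates 1, 2 or 3, GR-STM 0 min replicates 2 or 3, or WT 120 min replicate 2 (adjusted p between 0.0578 and 0.216), that of RTFL12 without GR-STM 120 min replicates 1 or 2, GR-STM 0 min replicates 2 or 3, or WT 120 min replicate 2 (adjusted p between 0.0571 and 0.239), and that of CAF1a without GR-STM 120 min replicate 2, or GR-STM 0 min replicates 2 or 3 (adjusted p between 0.054 and 0.167).

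The touch and early stress list as a whole had 0 of 15 tested genes called higher and 2 called lower at 120 min (TCH4 and ERF11), where 0.234% of all genes were lower, with a median change of -1.38. In GR-STM minus WT at 0 min, 8 of the 15 were called higher, against 0.338% of all genes, with a median of 1.59. At 120 min, GR-STM minus WT gave a list median of 0.10 and 0 calls. Without GR-STM 0 min replicates 2 and 3, TCH4 had a change of -0.66, ERF11 one of -0.83, RTFL12 one of -0.94 and CAF1a one of -0.40, all with an adjusted p of 1. The part of touch or stress in the lower genes was not tested beyond these values. AT2G27080, PHI-1, AT3G50800, OCT3, WRKY26, AT4G30180 and AT5G06270, the remaining genes among the 15 lowest, had changes of -1.52, -1.65, -1.71, -1.71, -1.66, -1.66 and -1.56. Over 18 fits that each left out 1 library, the call held in 4 for PHI-1 and for AT3G50800. It held in 9 for OCT3, 11 for AT2G27080 and 15 for AT4G30180, and in all 18 for WRKY26 and AT5G06270. All of these genes lost their call without the pair of GR-STM 0 min replicates 2 and 3. Their changes without it differed in size: OCT3, WRKY26, AT4G30180 and AT5G06270 had -1.81, -1.61, -1.74 and -1.39 (adjusted p between 0.0918 and 0.263), about as large as with all libraries, whereas AT2G27080, PHI-1 and AT3G50800 had -0.30, -0.73 and -0.21 (adjusted p = 1 each).

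**Figure D4:**
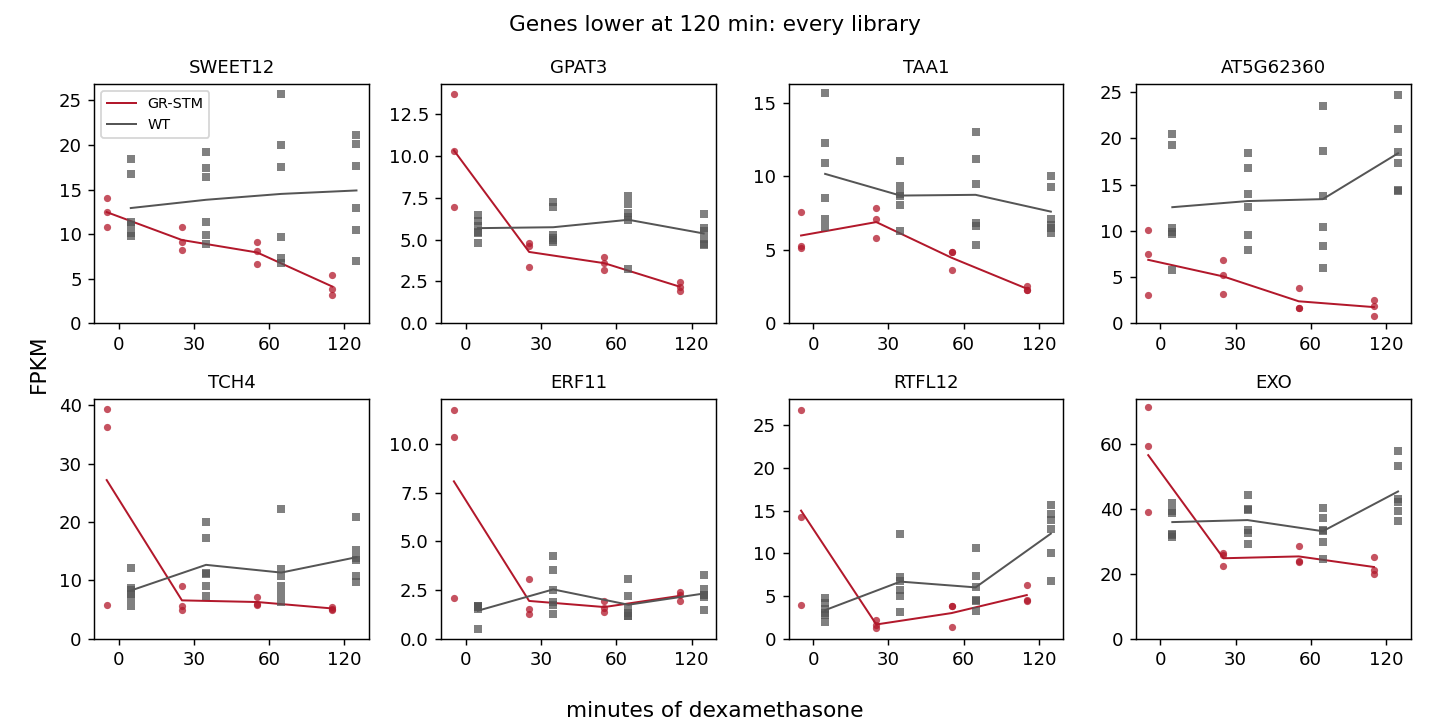
Levels (y axes, FPKM) of 8 genes that fell, SWEET12, GPAT3, TAA1, AT5G62360, TCH4, ERF11, RTFL12 and EXO, in every GR-STM library (red circles) and WT library (grey squares) at 0, 30, 60 and 120 min (x axes, evenly spaced); lines join the group means. TCH4, ERF11 and RTFL12 have 2 high GR-STM libraries and 1 low one at 0 min, whereas the 3 GR-STM libraries of SWEET12 lie between 10.8 and 14.05 FPKM at that time.

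The same genes were followed at the earlier times. At 30 min, 4 genes were higher (0.0208%) and 24 lower (0.125%) beyond WT; at 60 min, 173 genes passed (0.899%), 97 of them higher (0.504%) and 76 lower (0.395%). These comparisons use the same 0 min libraries as that at 120 min. ATHB2 and ZFP1 had already risen at 30 min, whereas NTM1 had a change of 1.28 then (adjusted p = 0.131) and one of 3.44 at 60 min (limma adjusted p = 5.44e-10). CUC1 had changes of 0.76, 2.87 and 3.72 at 30, 60 and 120 min, and AS1 had 0.87, 1.78 and 1.47. AAP1 had 0.31, 1.06 and 1.95, and BGLU45 had 0.21, 1.02 and 2.86. SWEET12 had -0.51, -0.65 and -1.7, and TAA1 had 0.21, -0.17 and -1.04.

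Of the 113 higher genes, the GR-STM mean was highest at 120 min for 95, at 60 min for 17 and at 30 min for 1; of the 45 lower genes, it was lowest at 120 min for 33, at 60 min for 5 and at 30 min for 7. Choosing the genes at 120 min favours that time. The change between 60 and 120 min in GR-STM, less that in WT, uses no 0 min group mean. The 0 min libraries still enter its spread and the code series term. The change passed for 1 gene, SAG12 (0.00519% of the genes tested), with a value of 2.22 (SE 0.21, limma adjusted p = 1.71e-10). SAG12 passed the filter only through GR-STM after dexamethasone, so that this p-value is no support for its rise. An unadjusted p under 0.05 was found for 673 genes. Without GR-STM 60 min replicate 1 or 3, the number of genes that passed was 4 or 2. For AS1, BOP2 and ZFP1 that later change was -0.31, -0.33 and -0.35, and for CUC1, AAP1 and CXE17 it was 0.85, 0.89 and 1.41; none of these 6 passed.

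The end point alone, GR-STM minus WT at 120 min, gave 574 genes (2.98%), of which 367 (1.91%) were higher and 207 (1.08%) lower. Its group means hold none of the 0 min libraries, though these enter the shared spread and the code series term. A lasting difference between the lines enters the end point. Without GR-STM 120 min replicate 2 there were 276 higher and 106 lower genes. CUC1 differed by 3.54 (SE 0.24, limma adjusted p = 7.09e-17) and LSH3 by 2.21 (SE 0.21, limma adjusted p = 2.35e-11). AS1 differed by 1.17, BOP2 by 1.44, AIL7 by 1.81 and AAP1 by 2.09, all with adjusted p of at most 3.03e-05. CUC1 and AIL7 passed the filter only through GR-STM after dexamethasone, so that their p-values are no support here. SWEET12 differed by -1.24, GPAT3 by -0.95 and TAA1 by -1.36, with adjusted p of at most 0.00231. For TCH4 the difference was -1.06 (adjusted p = 0.0916), for ERF11 -0.29 and for CAF1a 0.04, and none of these 3 passed.

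The 3 other GR lines received the same dexamethasone, so that the change in GR-STM could be set against their mean change with no WT group mean. WT libraries still entered the shared estimate of the spread. In that comparison 288 genes (1.5%) passed, 211 (1.1%) higher and 77 (0.4%) lower in GR-STM. It shares the 6 GR-STM libraries with the comparison to WT, so the values stand side by side. NTM1 differed from the mean of the other lines by 4.28, CUC1 by 3.44, LSH3 by 1.89, AS1 by 1.24, AAP1 by 2.15 and CKX7 by 1.78, with adjusted p between 5.70e-15 and 0.000688. For CUC1, which passed the filter only through GR-STM after dexamethasone, the p-value is no support. SWEET12 differed by -1.76, GPAT3 by -1.81 and TAA1 by -1.24. Of list genes that had not passed beside WT, 9 passed here, chosen for naming after their values were seen. Higher in GR-STM were KNAT1 by 1.08 (limma adjusted p = 0.0135), GH3.3, an auxin-conjugating enzyme gene, by 1.82 (limma adjusted p = 8.59e-06), BR6OX2, of brassinosteroid synthesis, by 1.7 (limma adjusted p = 5.10e-07), IPT3 by 1.08 (limma adjusted p = 0.00221), ARR4, a type-A response regulator, by 0.64 (limma adjusted p = 0.0349) and KAN1 by 1.29 (limma adjusted p = 0.0474). KAN1 is itself the fused gene of one of the other lines, and how its reads divide between fusion and native gene is not given. The LITTLE ZIPPER genes ZPR1, ZPR3 and ZPR4, whose small proteins inhibit HD-ZIP III factors, were lower in GR-STM, with differences of -2.62, -2.11 and -1.14 (limma adjusted p of 5.43e-08, 0.0076 and 0.0487). Beyond WT these 3 had changes of -0.65, -0.7 and -0.42 in GR-STM and of 5.43, 3.75 and 3.46 in GR-REV, which is 1 of the 3 lines averaged. MYB59 differed by -0.62, ERF11 by -1.11, RTFL12 by -0.98 and CAF1a by -0.82, and these 4 did not pass.

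Beyond WT at 120 min, GR-REV had 156 genes called (0.81%), 90 higher (0.468%) and 66 lower (0.343%), GR-KAN1 163 (0.847%), 56 higher (0.291%) and 107 lower (0.556%), and GR-AS2 0, with 1304 genes of GR-AS2 at an unadjusted p under 0.05. For genes named here these values share the WT libraries. AT3G16180 was higher in GR-REV too, by 1.39 (SE 0.31, limma adjusted p = 0.0111), against 2.96 in GR-STM. BCAT-2 was lower in GR-REV, with a change of -1.65 (SE 0.35, limma adjusted p = 0.00503), and TAA1 higher, by 0.84 (SE 0.21, limma adjusted p = 0.033). In GR-KAN1, LOG8 was lower, with a change of -0.84 (SE 0.19, limma adjusted p = 0.0147), and RTFL12 and CAF1a were lower, with changes of -3.37 and -2.1 (limma adjusted p of 0.000404 and 0.0036). WRKY26 was lower in GR-REV, with a change of -1.44 (adjusted p = 0.0129). NTM1 had changes of -0.35, -0.53 and -0.35 in GR-AS2, GR-REV and GR-KAN1, and CUC1 of 0.07, 0.01 and 0.74, and none of these passed.

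**Figure D5:**
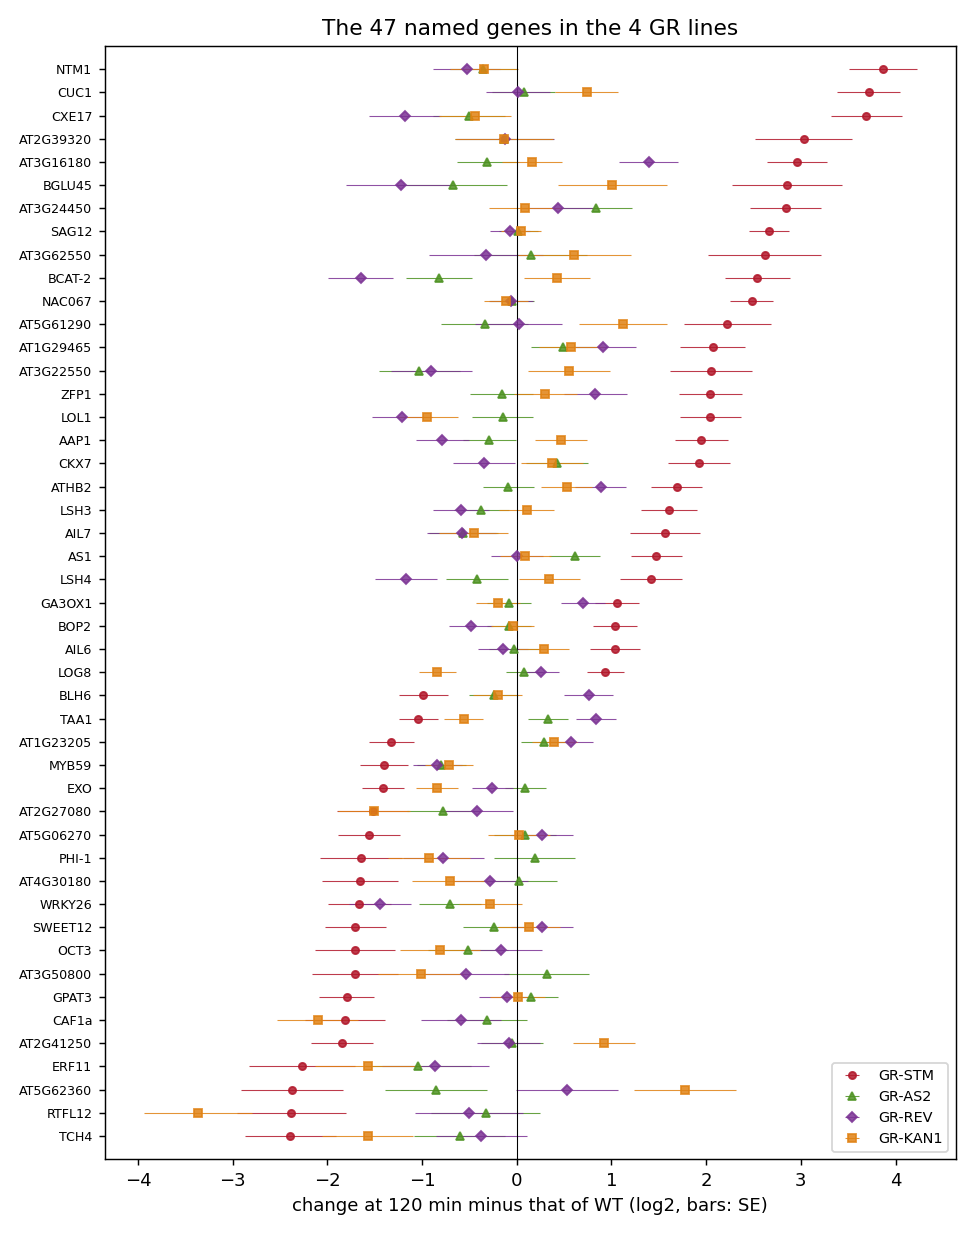
Change at 120 min beyond WT (log2 scale) of the 47 named genes that passed in GR-STM, shown for GR-STM, GR-AS2, GR-REV and GR-KAN1; bars are SEs from limma. GR-STM values run from -2.39 (TCH4) to 3.87 (NTM1), and the other lines' values for NTM1 lie between -0.53 and -0.35.

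Other lists held few or no called genes at 120 min. None passed among 9 HD-ZIP III and LITTLE ZIPPER genes, 10 abaxial identity genes, 8 CIN-type TCP genes, 11 cell cycle genes, 13 clock genes and 5 seed storage genes. Over all genes tested, 0.821% passed. Within the abaxial list KAN1 had a change of 1.21 (adjusted p = 0.231), and within the auxin-induced list GH3.3 had one of 0.98 (adjusted p = 0.179). Neither passed beyond WT. Medians of these lists lay between -0.25 for the clock and 0.19 for the cell cycle, apart from -1.05 for the seed storage genes, which summed to 50.8 FPKM in 1 WT library at 120 min and to 0.432 FPKM in the lowest.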

How the data were processed

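Whole-seedling RNA was sequenced from oligo-dT primed cDNA, per the labels' protocols. The authors deposited 1 table of FPKM values, geometrically normalized across libraries, made with TopHat2 2.0.10 and Cufflinks on TAIR10, per the design text and the submitters' processing notes. The sources used here give neither the Cufflinks version nor the annotation or the use of strand. Depth is unknown: low values were not whole multiples of 1 read (1.69 to 8.73% at the most common ratio), so no count test was run and overlapping or antisense genes cannot be separated. The table had 22346 entries, of which 14 placeholders and 200 organelle genes were left out; 22041 of the 22132 nuclear IDs matched RefSeq's TAIR10.1 annotation, whose coordinates are printed. It held 0 columns of other samples, and 0 pairs of libraries were identical.

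Values were tested as log2(FPKM + 0.5) with limma 3.58.1 in R 4.3.3 (lmFit, contrasts.fit and eBayes with trend, 2-sided, Benjamini-Hochberg over 19251 genes), with 1 mean for each of 20 groups over all 71 libraries and the library code series (Ot79, Ot86, OtA0, from the labels) as a covariate. GR-STM libraries were all Ot79; WT replicates 4 to 6 were Ot86 at 0 min and OtA0 at 120 min. A fold change on this scale understates that of low genes. Genes under a highest group mean of 1 FPKM were left out. The fit was tested on simulated data beforehand, with 50 genes given each change in GR-STM at 120 min. It called 36% of genes changed by 1 log2 and 34% of those changed by -1. For changes of 2 and -2 it called 90% and 82%. A gene that did not pass may thus have changed by about 1 log2.

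Named genes were STM, the 15 highest and 15 lowest changes among called genes reaching 5 FPKM, the 5 smallest adjusted p in each direction, called members of the lists, and, as values, uncalled members of the KNOX, boundary, meristem, HD-ZIP II, gibberellin and cytokinin lists. For the second hour the 5 largest called changes in each direction were named. Members, lists and tests were chosen with earlier results of these data known. KAN1, GH3.3, NAC069, AT4G01535, BR6OX2, ARR4, ZPR1, ZPR3 and ZPR4 were named after their values were seen. Alternatives covered the pseudocount, the filter, the covariate, the libraries entering, quantile normalization, a robust prior, a replicate block over all lines or, added later, within each line, library weights and leaving out each library.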

Additional observations from a re-analysis of the deposited data

Results flagged for a closer look

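In WT, 94 groups of 6 libraries were examined for a library far from the other 5 for its named gene, and 10 held one, where chance gives about 1 in 20. At 0 min, WT replicate 2 stood alone for AT2G39320 (5.88 FPKM, next 2.45), AT3G22550 (14.7, next 10.2), MYB59 (43.2, next 28.6), AT5G06270 (20.4, next 16.5) and OCT3 (24.9, next 15.5 FPKM), and this is the library that stood furthest from its group. WT 0 min replicate 5 was highest for AS1 (17.4 FPKM, next 13.5) and lowest for ERF11 (0.504 FPKM, next 1.54). At 120 min the lone libraries were replicate 5 for AT3G16180 (17.2 FPKM, next 13.1), replicate 2 for AT3G22550 (21.1 FPKM, next 13) and replicate 3 for SAG12 (0.0626 FPKM, the others listed at 0).

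The change at 120 min in GR-STM was set against the mean change of GR-AS2, GR-REV and GR-KAN1. By limma it differed at an adjusted p under 0.05 for 38 of the 47 named genes, against 1.5% of all genes tested. The 47 had been called for their change in GR-STM. Both comparisons use the same GR-STM libraries, so the 38 are no independent support. Among them, CUC1, NAC067, AIL7 and SAG12 passed the filter only through GR-STM after dexamethasone. On the log2 scale the difference was 4.28 for NTM1, 2.55 for NAC067, 3.44 for CUC1, 1.89 for LSH3, 1.83 for LSH4, 1.24 for BOP2 and 1.24 for AS1. It was 2.1 for AIL7, 1.0 for AIL6, 1.25 for ATHB2, 1.72 for ZFP1, 2.81 for LOL1, 1.78 for CKX7, 1.1 for LOG8 and 0.92 for GA3OX1. Transport and metabolic genes stood at 2.15 for AAP1, 2.55 for AT3G16180, 3.22 for BCAT-2, 4.4 for CXE17, 3.15 for BGLU45 and 2.67 for SAG12. AT2G39320, AT3G24450, AT3G62550, AT5G61290, AT1G29465 and AT3G22550 stood at 3.16, 2.39, 2.47, 1.95, 1.41 and 2.51. Lower in GR-STM were AT5G62360 at -2.86, AT2G41250 at -2.11, GPAT3 at -1.81, SWEET12 at -1.76, AT1G23205 at -1.74, AT5G06270 at -1.68, TCH4 at -1.54, AT4G30180 at -1.34, TAA1 at -1.24, BLH6 at -1.09 and EXO at -1.08.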

How the results depend on the processing

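Counts of called genes stayed within 1.5 times the reported ones at other pseudocounts, without the filter or covariate, and with quantile normalization. The same held with a robust prior or only the groups compared, and exceptions are given further on. Which genes were called changed more than the counts. Without the covariate 152 genes were called beyond WT, 120 of them among the 158. With only the groups compared 152 were called, 107 of them among the 158. At the end point these settings gave 840 and 698 genes, with 491 and 448 of them among the 574. Library quality weights, whose estimate stopped before it converged, gave 977 genes for the change at 120 min beyond WT (386 higher, 591 lower, all 158 among them), 1058 against the other 3 lines, 204 for the second hour and 1376 at the end point. With code series Ot79 alone the change beyond WT gave 96, and without GR-STM 0 min replicates 2 and 3 (added after the data were seen) 60, or 104 against the other 3 lines. With a minimum of 5 FPKM the second hour gave 0, SAG12 being under it. Leaving out each library in turn gave 108 (without GR-STM 0 min replicate 2) to 212 (without replicate 1) genes beyond WT, 207 to 292 against the other lines, 1 to 4 for the second hour and 382 to 578 at the end point. With a replicate block the counts were 147, 279, 1 and 556, and of the 47 named genes called, AIL6, AT2G27080, AT3G50800 and PHI-1 lost their call (adjusted p between 0.0532 and 0.0691). Deviations of same-numbered libraries at 120 and 0 min correlated between 0.143 and 0.331 over the 6 WT pairs (between -0.162 and 0.326 within code series) and between -0.0168 and 0.256 over the 3 GR-STM pairs, and across lines between -0.0707 and 0.117 over 6 pairs; own numbers correlated best in 2 of 6 and 2 of 3. With the block set within each line, added after the data were seen, the counts were 147, 277 and 1, and AIL6, BLH6, ERF11, AT2G27080, AT3G50800 and PHI-1 lost their call (adjusted p between 0.0503 and 0.0819). Of the 47 named genes called, 31 were called without any single library; none changed sign under any alternative. Depth could not be read from FPKM, and the 3 GR-STM libraries per group limit what could be detected.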

Other observations

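Grouped by words in their annotation, chosen after the values were seen and thus a description only, 16 of the 113 higher genes (14.2%) and 7 of the 45 lower genes (15.6%) were transcription factors, against 1022 of the 19251 tested (5.31%). Of the 16, CUC1, NAC067, AIL7 and ZFP2 passed the filter only through GR-STM after dexamethasone. Of the 7, ERF11, BLH6, WRKY26 and MYB59 had changes of -2.27, -0.98, -1.66 and -1.4. Without GR-STM 0 min replicates 2 and 3 these were -0.83, -0.87, -1.61 and -1.42. Cell wall words were in 0 of the higher and 6 of the lower genes (13.3%), against 256 of all (1.33%): EXPA11, an expansin, CSLB03, a cellulose synthase-like gene, GATL10, AT1G23205, AT5G62360 and TCH4. The changes of TCH4, AT5G62360 and AT1G23205 were -2.39, -2.38 and -1.32 with all libraries. They were -0.66, -2.63 and -1.34 without GR-STM 0 min replicates 2 and 3. GATL10 averaged 9.69 ± 5.58 FPKM in GR-STM at 0 min (SD, 3 libraries). EXPA11 averaged 4.69 ± 0.48 FPKM at 120 min and 12.98 ± 3.5 FPKM at 0 min in GR-STM (SD, 3 libraries each), and 11.1 ± 2.84 FPKM in WT at 120 min (SD, n = 6), a limma change of -1.23 (SE 0.32, adjusted p = 0.0410).

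Transport words were in 6 of the higher genes (5.31%) and 5 of the lower genes (11.1%), against 669 of all (3.48%). Beside AAP1 and AT3G16180, the higher ones were AT2G39130, OPT1, an oligopeptide transporter, ZIFL1 and AT3G21670. AT2G39130 averaged 32.0 ± 2.85 FPKM at 120 min and 8.95 ± 0.99 FPKM at 0 min in GR-STM (SD, 3 libraries each), and 10.8 ± 2.87 FPKM in WT at 120 min (SD, n = 6), a limma change of 1.69 (SE 0.25, adjusted p = 1.72e-05). Lower were SWEET12, OCT3, UMAMIT20, AT1G57980 and AT2G40460. UMAMIT20 averaged 6.44 ± 1.42 FPKM at 120 min and 15.1 ± 3.4 FPKM at 0 min in GR-STM (SD, 3 libraries each), and 19.0 ± 4.81 FPKM in WT at 120 min (SD, n = 6), a limma change of -1.24 (SE 0.33, adjusted p = 0.0480).

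Of starch and trehalose metabolism, CT-BMY and TPPE fell. CT-BMY, a chloroplast beta-amylase that breaks down starch, averaged 14.7 ± 4.65 FPKM at 120 min and 38.6 ± 7.61 FPKM at 0 min in GR-STM (SD, 3 libraries each), and 48.5 ± 8.996 FPKM in WT at 120 min (SD, n = 6), a limma change of -1.39 (SE 0.30, adjusted p = 0.00661). TPPE, a trehalose phosphatase, averaged 0.976 ± 0.114 FPKM at 120 min and 2.82 ± 0.53 FPKM at 0 min in GR-STM (SD, 3 libraries each), and 4.51 ± 1.35 FPKM in WT at 120 min (SD, n = 6), a limma change of -1.34 (SE 0.31, adjusted p = 0.0119). HAE, a receptor kinase of organ shedding, averaged 4.23 ± 0.40 FPKM at 120 min and 1.11 ± 0.28 FPKM at 0 min in GR-STM (SD, 3 libraries each), and 1.24 ± 0.36 FPKM in WT at 120 min (SD, n = 6), a limma change of 1.29 (SE 0.28, adjusted p = 0.00740). These genes were chosen after their values were seen.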
